A study of Rattus norvegicus with 6 samples.

Results

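Cytochrome c oxidase, complex IV of the respiratory chain, was examined in the rat heart primordium through 8 nuclear genes that code for alternative forms of 4 of its subunits. The genes were Cox4i1 and Cox4i2, Cox6a1 and Cox6a2, Cox7a1 and Cox7a2, and Cox8a and Cox8b, and every probe whose gene name in the array files was one of these symbols was taken. The rule found 7 of the 8 genes with 8 of 30367 probes, and 6 of these genes entered the test, for which either group had to be well above background throughout, on its 3 arrays. No probe carried the name Cox7a1, but a probe named LOC687508 has the NCBI gene number of Cox7a1 and is described apart from the rule under that symbol.

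The tissue was the heart primordium of Wistar rat embryos (Wister in the sample labels) on embryonic day 10, with no treatment or altered gene in either group. Primordia of the pre-heartbeat group were flat at their center and came from embryos of 3 to 4 somites. Those of the post-heartbeat group were raised at their center, with 4 to 5 somites, so that the groups differed in the stage of the embryo as well as in the beating. Each group had 3 samples, each hybridized to 1 one-color array, and the sources used here do not say whether a sample was 1 primordium or several, so the p-values measure the spread between these samples only. The dissected tissue holds other cells besides cardiac muscle, and in such bulk RNA fewer cells of a type and less RNA per cell cannot be told apart.

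Complex IV passes electrons from cytochrome c to oxygen and pumps protons across the inner mitochondrial membrane. Its catalytic core is made of subunits encoded in mitochondrial DNA, around which nuclear-encoded subunits are arranged that stabilize the enzyme and adjust its activity. Cox6a2, Cox7a1 and Cox8b are the forms of heart and skeletal muscle and replace their ubiquitous counterparts Cox6a1, Cox7a2 and Cox8a as striated muscle matures, while Cox4i2 is a form known from lung and from its response to low oxygen, in place of Cox4i1.

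The 6 arrays lay on 2 slides. On slide 1 were replicate 1 of the pre-heartbeat group and replicates 1 and 2 of the post-heartbeat group. Slide 2 carried replicates 2 and 3 of the former and replicate 3 of the latter. Of 19299 tested probes, 8.68% were higher on slide 1 and 7.43% were higher on slide 2 at a limma adjusted p under 0.05, while post-heartbeat signals were higher than pre-heartbeat signals for 0.124% and lower for 0.0207%. Values are therefore also given within each slide and with the slide as a block. Signals are log2 of the processed signal less the 75th percentile of the array, so that 0 is the signal of that percentile. As a probe has its own affinity, the signal of a probe is compared between arrays and not with that of another probe. All 12 cardiac muscle markers were well above background on all 6 arrays.

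Among the 8 genes, the muscle form Cox6a2 was the one whose signals did not overlap between the groups, with 2.91 fold more signal after heartbeat initiation, and Cox4i2 differed between the slides. Of all tested probes, 5.38% did not overlap and were higher after heartbeat initiation, and 6.17% did not overlap and were lower. Of the 6 tested genes found by the rule, 0 were higher and 0 were lower at a limma adjusted p under 0.05, and 1, Cox6a2, was higher at an unadjusted p under 0.05, as were 3.9% of all tested probes (3.1% lower). By the selection of the study's methods, a difference of 1.5 fold or more with an unadjusted Tukey HSD p under 0.05, 1 of the 6 was higher and 0 were lower, where 1.9% of all tested probes were higher and 1.16% were lower. With the slide as a block, 1 of the 6, again Cox6a2, was higher at a limma adjusted p under 0.05, where 1.09% of all tested probes were higher and 0.42% lower.

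**Figure D1:**
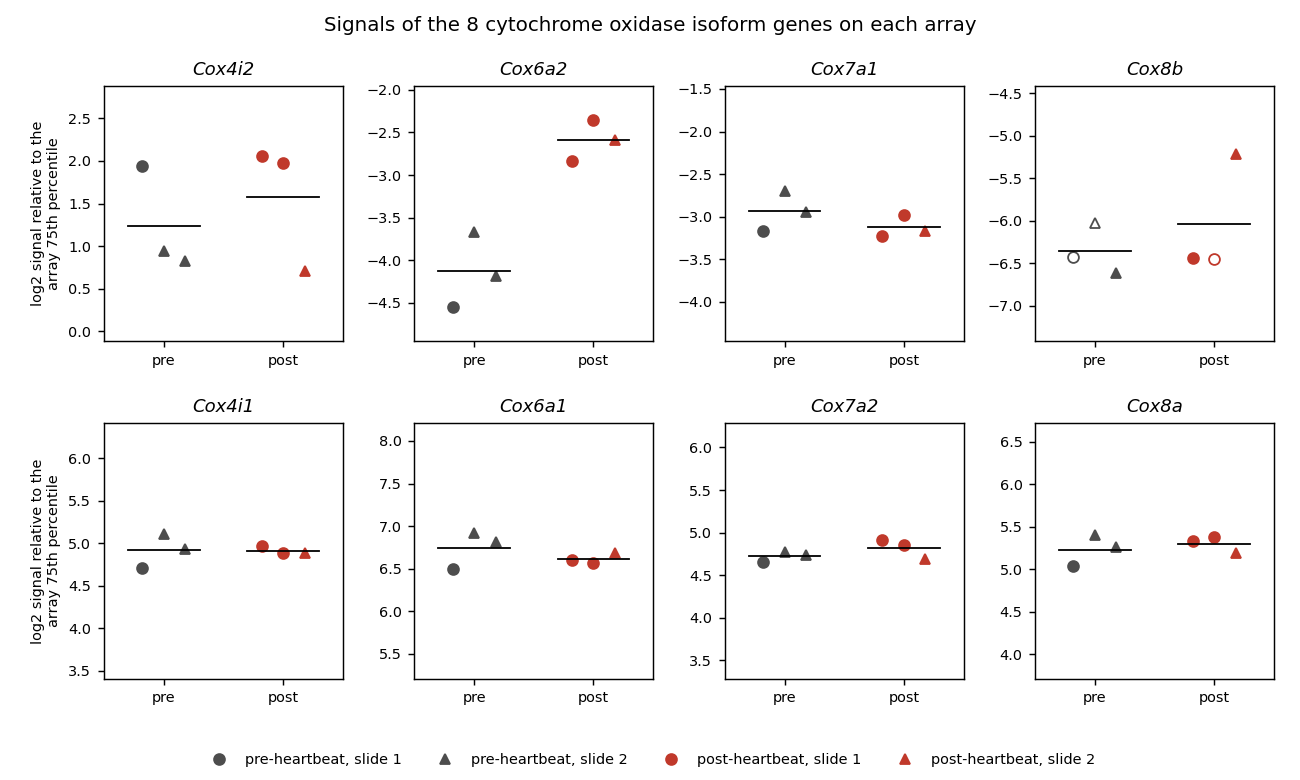
Normalized signal (log2 relative to the array's 75th percentile) of the 8 isoform genes on the pre-heartbeat arrays (grey) and post-heartbeat arrays (red), with circles for slide 1, triangles for slide 2, open symbols where the probe was not well above background and lines for group means. Every panel spans 3 log2 units: the post-heartbeat arrays of Cox6a2 (-2.83 to -2.36) all lie above its pre-heartbeat arrays (-4.55 to -3.66), and Cox4i2 is high on the 3 arrays of slide 1 in either group.

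Cox6a2 codes for the form of subunit VIa of heart and skeletal muscle. Its probe lies at chr1:187464580-187464639 on the minus strand of the rn4 genome of the array annotation. The normalized signal of Cox6a2 was -4.55, -3.66 and -4.18 on pre-heartbeat arrays 1 to 3 and -2.83, -2.36 and -2.59 on post-heartbeat arrays 1 to 3. All 3 post-heartbeat arrays were above all 3 pre-heartbeat arrays, as was the case for 5.38% of all tested probes. The pre-heartbeat mean was -4.13 ± 0.44 (SD, n = 3) and the post-heartbeat mean -2.59 ± 0.24 (SD, n = 3). This is a log2 fold change of 1.54 (SE 0.25, 95% interval 0.95 to 2.14, limma adjusted p = 0.0977). On the linear scale this was 2.91 fold (1.93 to 4.39). An exact permutation test of the 2 group means gave p = 0.1, two-sided, the smallest that 3 against 3 arrays allow.

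The difference in Cox6a2 was present on both slides. On slide 1 the post-heartbeat mean exceeded the single pre-heartbeat array by 1.95, and on slide 2 the single post-heartbeat array exceeded the pre-heartbeat mean by 1.34. With the slide as a block, the log2 fold change was 1.65 (SE 0.23) and the adjusted p of limma was 0.0199. Between the slides themselves the log2 difference of Cox6a2 was -0.32 (limma adjusted p = 0.362). The probe was dim but measured throughout: its signal was 2.75 to 3.1 log2 units above the dimmest probe that was well above background on the pre-heartbeat arrays, and 4.27 to 4.79 above it on the post-heartbeat arrays. After normexp background correction, in place of the background subtraction of the scanner software, the log2 fold change was 1.0.

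Cardiac muscle markers were also higher on average after heartbeat initiation. All 12 markers had a log2 fold change above 0, with a median of 0.65, where the median of all tested probes was -0.033. For 7 of the 12, all post-heartbeat arrays were above all pre-heartbeat arrays, as for 5.38% of all tested probes. For the other markers the groups overlapped. Of the 12, 5 were in the methods' selection (Tnni1, Myh6, Myh7, Myl4 and Actn2, genes of troponin, myosin and actinin), 0 passed limma and 4, the same without Tnni1, passed with the slide as a block. Among all tested probes, 1.9% were selected as higher and 1.09% passed as higher with the block. The summed linear signal of the 12, in units of the array's 75th percentile, was 374 to 633 in the pre-heartbeat group and 694 to 835 in the post-heartbeat group. The brightest marker, Actc1, overlapped between the groups, at 130 to 238 and 229 to 264. Without it the sum was 244 to 395 and 464 to 571. Relative to the mean log2 signal of the 12 markers on the same array, Cox6a2 was at -7.48, -6.95 and -7.53 in the pre-heartbeat group and -6.69, -6.24 and -6.45 in the post-heartbeat group, which did not overlap. The change on this scale was 0.86 (exact permutation p = 0.1), and the median of all tested probes on it was -0.72, as the markers themselves were higher by 0.68. The scale was chosen after the values had been seen.

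Lists of genes named for other cell types are given by their summed signals, which were not tested, nor was their part in the signal of Cox6a2. Which cells of the tissue gave the signals of these lists was not tested, and cardiac muscle cells may have been among them. Of 9 genes of skeletal muscle and somites, 5 were tested and 0 were selected, and Myod1, Myf6 and Pax7 were not well above background on any array, while the summed signal was 21.6 to 24.0 before and 25.2 to 26.5 after heartbeat initiation. Of 8 tested genes of smooth muscle and pericytes, 5 were selected as higher (Myh11, Cnn1, Tagln, Acta2 and Cspg4), where 1.9% of all tested probes were. The other tested genes of this list were not selected, at log2 fold changes of 0.15 to 0.29. The sum of the list was 4.53 to 5.45 and 8.27 to 10.1, with Higd1b not well above background. The sums of the 10 erythroid genes, 7 of them tested, overlapped between the groups, at 2.31 to 4.45 and 3.72 to 6.30, with Hbb and Epor selected as higher and Hbe1 and Gata1 not well above background. Without the brightest, Hba-a1, the erythroid sums did not overlap, at 0.84 to 1.87 and 2.14 to 2.41. Of the 7 tested erythroid genes, 5 had a log2 fold change above 0 and 2 below. The sums of 8 endothelial genes were 18.6 to 19.1 and 13.5 to 14.9, and those of 8 endoderm genes 46.6 to 49.2 and 30.4 to 39.0, with 0 genes of either list selected. One bright probe made up most of each of these sums, Kdr (13.07 to 14.7 and 8.70 to 10.1) and Ttr (32.4 to 44.1 and 24.2 to 29.2). Without it the groups overlapped, at 4.39 to 5.72 and 4.49 to 4.83 for the endothelial genes and 4.69 to 14.1 and 6.25 to 9.80 for those of endoderm. Neural ectoderm genes, of which 6 of 7 were on the array and 3 were tested, summed to 7.26 to 8.10 and 3.33 to 3.91, with Otx2 lower (log2 fold change -1.56, limma adjusted p = 0.0201) and Hes5 and Zic1 not well above background. Without Otx2 the neural sums were 1.31 to 1.97 and 1.39 to 1.68.

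The ubiquitous counterpart Cox6a1 did not show this difference. It read 6.49, 6.92 and 6.82 on the pre-heartbeat arrays and 6.60, 6.57 and 6.69 on the post-heartbeat arrays, and the groups overlapped. The log2 fold change was -0.13 (SE 0.16, 95% interval -0.50 to 0.25, limma adjusted p = 0.864), an interval that did not hold the value of Cox6a2. The 3 arrays of slide 2 were above the 3 of slide 1, by 0.24 on average (limma adjusted p = 0.259), as were those of 24.1% of all tested probes.

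The isoform pair was also compared within arrays, which removes the scaling of the array. The log2 difference of the Cox6a2 probe from the Cox6a1 probe was -11.04, -10.59 and -11.00 before and -9.43, -8.92 and -9.27 after heartbeat initiation. The ratio of the muscle form to the ubiquitous form was thus 3.18 fold higher in the post-heartbeat group, a log2 change of 1.67 (exact permutation p = 0.1, the smallest possible). It was 1.87 on slide 1 and 1.52 on slide 2, and 1.13 over all arrays after normexp background correction. Of the 3 isoform pairs with both probes well above background on all 6 arrays, this had the largest change. With 3 against 3 arrays and a smallest p of 0.1, no pair could pass 0.05 before or after adjustment.

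**Figure D2:**
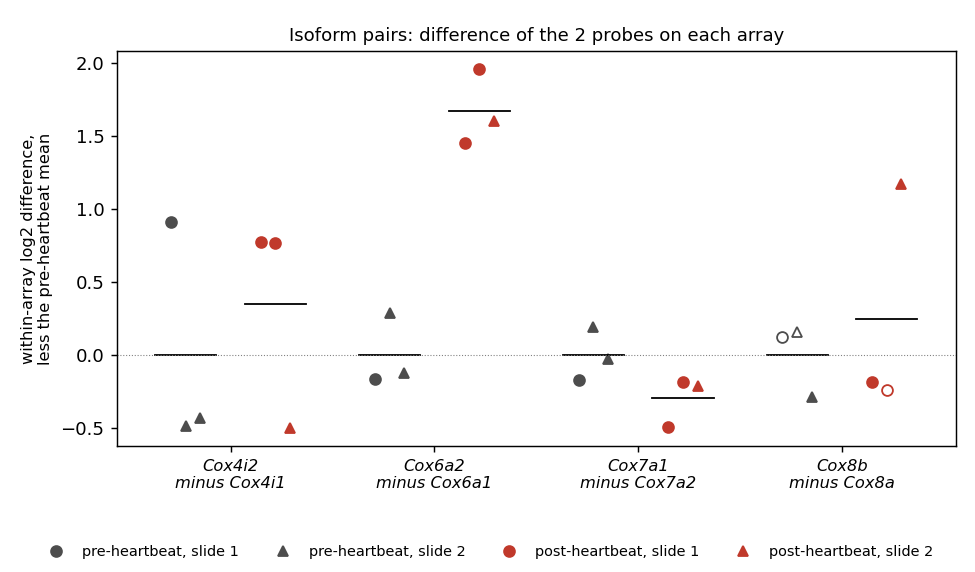
Within-array log2 difference of the 2 probes of each isoform pair, less the mean of the 3 pre-heartbeat arrays, with circles for slide 1, triangles for slide 2, open symbols where a probe was not well above background and lines for group means. Cox6a2 minus Cox6a1 is higher by 1.67 on the post-heartbeat arrays, Cox7a1 minus Cox7a2 is lower by 0.29, the groups overlap for Cox4i2 minus Cox4i1, and Cox8b was at the limit of detection.

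Sequence upstream of the start of transcription is shown for 2 muscle forms, of which the first was in the methods' selection and the second was not, and for 2 ubiquitous forms. It was read from the RefSeq promoter table for the GRCr8 assembly, in which 6 of the 8 genes had an entry. Cox4i2 and Cox6a1 had none. Each sequence is the 250 bases before the start, 5′ to 3′ in the direction of transcription, at chr1:192219717-192219966 (minus strand) for Cox6a2, chr1:94568966-94569215 (plus strand) for Cox7a1, chr1:213833624-213833873 (minus strand) for Cox8a and chr8:89601150-89601399 (minus strand) for Cox7a2. Capitals mark matches, on either strand, to an E-box (CANNTG, the motif of bHLH factors), the MEF2 motif (bound by a family of muscle transcription factors), the ETS core CCGGAAG (read by GABP, also called NRF2) and the NRF1 motif.
Cox6a2: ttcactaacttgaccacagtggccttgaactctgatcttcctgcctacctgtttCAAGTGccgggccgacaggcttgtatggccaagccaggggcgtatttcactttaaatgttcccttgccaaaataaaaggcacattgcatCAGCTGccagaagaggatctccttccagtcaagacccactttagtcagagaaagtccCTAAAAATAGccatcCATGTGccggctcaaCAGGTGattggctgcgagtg
Cox7a1: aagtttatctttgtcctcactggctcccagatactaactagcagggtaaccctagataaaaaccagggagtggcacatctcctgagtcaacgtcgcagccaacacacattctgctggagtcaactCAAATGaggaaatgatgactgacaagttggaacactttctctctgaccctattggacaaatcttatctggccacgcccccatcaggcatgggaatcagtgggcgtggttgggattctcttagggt
Cox8a: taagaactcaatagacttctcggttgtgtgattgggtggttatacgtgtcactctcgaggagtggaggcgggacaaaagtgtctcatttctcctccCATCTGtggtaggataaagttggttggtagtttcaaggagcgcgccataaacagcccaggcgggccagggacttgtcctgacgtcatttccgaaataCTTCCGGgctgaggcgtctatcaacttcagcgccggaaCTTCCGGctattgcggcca
Cox7a2: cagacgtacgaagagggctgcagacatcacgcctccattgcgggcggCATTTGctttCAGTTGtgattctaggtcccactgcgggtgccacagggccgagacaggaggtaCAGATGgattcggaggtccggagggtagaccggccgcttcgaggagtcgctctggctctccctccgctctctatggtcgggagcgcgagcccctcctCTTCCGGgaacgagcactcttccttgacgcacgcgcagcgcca

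The window of Cox6a2 held 4 E-boxes and 1 MEF2 motif, which began 50 bases before the start, with no overlap between them. Over all 33469 promoter windows of this length, 65.5% held an E-box, 3.2% held 4 or more and 2.96% held the MEF2 motif. The window of Cox7a1 held 1 E-box and no other motif searched. That of Cox8a held 2 ETS cores and 1 E-box, and that of Cox7a2 held 1 ETS core and 3 E-boxes, where 7.27% of all windows held an ETS core and 1.11% held 2 or more. Of the members not printed, Cox8b had 2 E-boxes and Cox4i1 had 1. The exact form of the NRF1 motif, which 0.762% of all windows held, was in none of the 6, and other forms of it were not searched. These are matches of letters, and no binding was measured.

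Cox7a1 codes for the muscle form of subunit VIIa. It read -3.17, -2.69 and -2.95 on the pre-heartbeat arrays and -3.23, -2.98 and -3.17 on the post-heartbeat arrays, well above background on all 6 arrays. The groups overlapped, and the post-heartbeat arrays lay in the lower part of the range. The log2 fold change was -0.19 (SE 0.17, 95% interval -0.59 to 0.21, limma adjusted p = 0.864), and the interval did not hold the value of Cox6a2. It was 0.061 on slide 1 and -0.35 on slide 2.

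The ubiquitous Cox7a2 was measured by 2 probes on chromosome 8. The brighter read 4.65, 4.77 and 4.74 before and 4.92, 4.86 and 4.70 after heartbeat initiation, which is a log2 difference of 0.10 (95% interval -0.21 to 0.42, limma adjusted p = 0.864). The second probe read 3.42, 3.95 and 3.81, then 3.83, 3.65 and 3.74, a log2 fold change of 0.014 (limma adjusted p = 0.985). On both probes the groups overlapped. Within arrays, Cox7a1 less Cox7a2 was -7.82, -7.46 and -7.68 before and -8.15, -7.84 and -7.86 after heartbeat initiation. With this brighter probe the post-heartbeat differences were all lower, by 0.29 on the log2 scale or 0.815 fold (exact permutation p = 0.1, the smallest possible). Within slides the change was -0.17 on slide 1 and -0.29 on slide 2, beside SDs within the groups of 0.18 and 0.17. The separation depended on the probe and the processing: with the second Cox7a2 probe, chosen with the values known, the groups overlapped (change -0.20, exact permutation p = 0.3), and p was 0.2 with normexp and 0.3 with quantile normalization.

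Cox8b, the muscle form of subunit VIII, was at the limit of detection. It was well above background on 1 pre-heartbeat array, replicate 3, and on 2 post-heartbeat arrays, replicates 1 and 3, and was not tested. Its signal was -6.42, -6.03 and -6.61 in the pre-heartbeat group and -6.43, -6.45 and -5.22 in the post-heartbeat group. Post-heartbeat replicate 3 was the only array on which it was clearly above the rest, at 2.15 log2 units over the dimmest probe that was well above background, against 0.66 to 0.88 on the other 5 arrays. Its ubiquitous counterpart Cox8a, measured by 10 spots, had signals of 5.03, 5.40 and 5.26, then 5.33, 5.37 and 5.19, a log2 fold change of 0.069 (95% interval -0.29 to 0.43, limma adjusted p = 0.903). As Cox8b was not well above background on 3 of the 6 arrays, no change of the pair with Cox8a is read.

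Cox4i2, the form of subunit IV known from its response to low oxygen, varied with the slide. Its signal was 1.94, 0.94 and 0.83 on pre-heartbeat arrays 1 to 3 and 2.06, 1.98 and 0.71 on post-heartbeat arrays 1 to 3. The 3 arrays of slide 1 were between 1.94 and 2.06 and the 3 of slide 2 were between 0.71 and 0.94, whatever the group. The slides differed by 1.18 on the log2 scale (SE 0.14, limma adjusted p = 0.00220), and the arrays of slide 1 were all higher, as for 18.3% of all tested probes. Between the groups, the log2 fold change was 0.34 (SE 0.44, 95% interval -0.70 to 1.39, limma adjusted p = 0.864). Fitted with slides as blocks, it was -0.052 (interval -0.37 to 0.26, limma adjusted p = 0.999), and within slides it was 0.073 and -0.18.

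Its counterpart Cox4i1 had signals of 4.71, 5.11 and 4.93 before and 4.96, 4.89 and 4.89 after heartbeat initiation. The log2 fold change was -0.0060 (95% interval -0.36 to 0.35, limma adjusted p = 0.993), and the slides overlapped. The within-array difference of Cox4i2 from Cox4i1 was -2.77, -2.91 and -2.91 on the arrays of slide 1 and -4.16, -4.10 and -4.18 on those of slide 2. Its change between the groups was 0.35 (exact permutation p = 1), against -0.14 within slide 1 and -0.044 within slide 2.

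**Figure D3:**
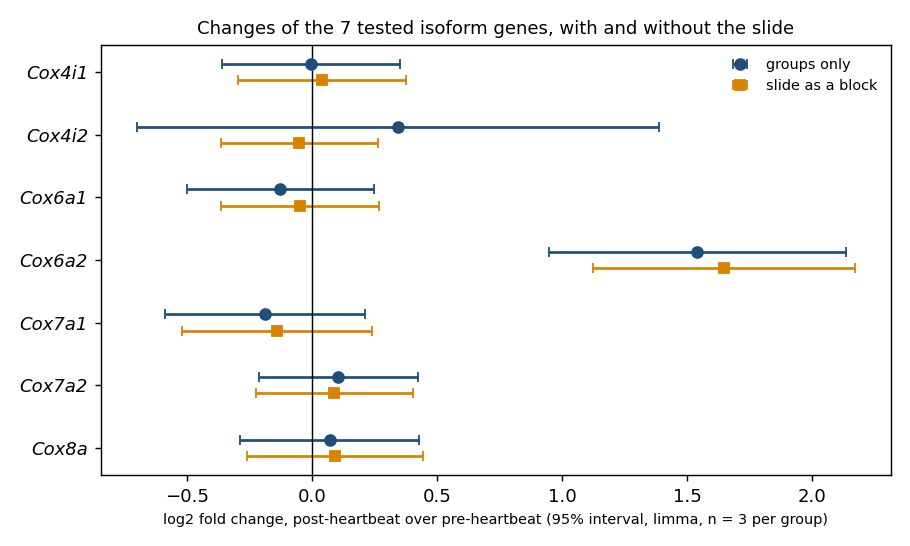
Log2 fold change of post-heartbeat over pre-heartbeat for the 7 tested isoform genes, Cox7a1 included, with 95% intervals from limma (n = 3 per group), for the groups alone (blue circles) and with the slide as a block (orange squares). The interval of Cox6a2 lies above 0 in both fits, at 0.95 to 2.14 and 1.12 to 2.17, and the interval of Cox4i2 narrows from -0.70 to 1.39 to -0.37 to 0.26 with the block.

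The other subunits of the complex gave no call between the groups. Of 12 further nuclear genes, 10 were on the array and 9 were tested, and 0 were higher or lower by limma, at an unadjusted p under 0.05, in the methods' selection or with the slide as a block. Their median log2 fold change was 0.035. Cox5a and Cox5b, which code for the subunits Va and Vb of the enzyme, differed by 0.035 and -0.13. The values were -0.11 for Cox6b1 and 0.17 for its testis form Cox6b2, and -0.026 for Cox6c, -0.019 for Cox7b and 0.20 for Cox7c. As with Cox4i2, Cox6b2 and Cox7c were higher on slide 1 than on slide 2, by 0.79 (limma adjusted p = 0.0280) and 0.57 (0.0345). At a limma adjusted p under 0.05, 8.68% of all tested probes were higher on slide 1.

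The mitochondrially encoded subunits that form the catalytic core were tested by 1 probe each. The log2 fold change was -0.16 for mt-Co1, -0.23 for mt-Co2 and -0.13 for mt-Co3, with limma adjusted p from 0.864 to 0.865. The groups overlapped for all 3. On pre-heartbeat replicate 2 the 3 genes had their highest signals, 6.43, 6.43 and 6.17.

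Of 31 genes for the assembly of the complex, 24 were on the array and were tested, and 0 passed limma at an adjusted or unadjusted p under 0.05, the methods' selection or limma with the slide as a block. Their log2 fold changes ran from -0.24 for Higd2a to 0.13 for Cox14, with a median of -0.018. Cycs, which codes for the cytochrome c that feeds the complex, differed by -9.1e-04 and Hccs, which attaches its heme, by -0.12. The testis form Cyct was not well above background on any array.

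Regulators of these genes were mostly without a call. Of 23 tested, 0 passed limma with or without the block, Ppargc1b was higher and Sp1 lower at an unadjusted p under 0.05 (1 gene each), and Ppargc1b alone was in the methods' selection. Ppargc1b codes for a coactivator of mitochondrial genes. It was well above background on 2 of 3 pre-heartbeat arrays and on all 3 post-heartbeat arrays, so it entered the test through the group in which it was higher, and its signal was -4.99, -5.74 and -4.67 before and -4.01, -4.04 and -3.95 after heartbeat initiation. The log2 fold change was 1.14 (SE 0.27), at a limma adjusted p of 0.239, or 0.120 in the fit with slides as blocks. Between the slides, 2 of the 23 were higher on slide 1 and 4 on slide 2 at a limma adjusted p under 0.05. Of all tested probes, 8.68% and 7.43% were. Among genes known to act on the oxygen-responsive element of Cox4i2, Rbpj was lower on slide 1 by 0.58 on the log2 scale (limma adjusted p = 0.0422), Cxxc5 was higher on it by 0.97 (0.0292) and Chchd2 differed by -0.19 (0.360). Between the groups these 3 differed by -0.23, 0.47 and -0.11, each at a limma adjusted p of 0.864 or 0.865.

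Calls were also made among other genes of energy metabolism that are abundant in striated muscle. Of 17 such genes, 16 were tested, 13 of them had a log2 fold change above 0, and their median was 0.42. Eno3, the muscle enolase, was higher by 1.27 (limma adjusted p = 0.0353), as the 1 of the 16 past this threshold (0.124% of all tested probes), and with it 7 of the 16 were in the methods' selection as higher (1.9% of all tested probes). The others were Ak1 (1.26, limma adjusted p = 0.0501), Pgam2 (0.90), Fabp3 (0.76), Pygm (0.72), Ldhb (0.70) and Cpt1b (0.64). The log2 fold change of Cox6a2, 1.54, was above that of each of the 16, although no test of that difference was made. This order may depend on the background correction: with normexp the value of the dim Cox6a2 probe was 1.0, and values of the 16 with normexp are not given here. With the slide as a block, 3 of the 16, Eno3, Ak1 and the muscle creatine kinase Ckm, passed limma as higher (1.09% of all tested probes).

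**Figure D4:**
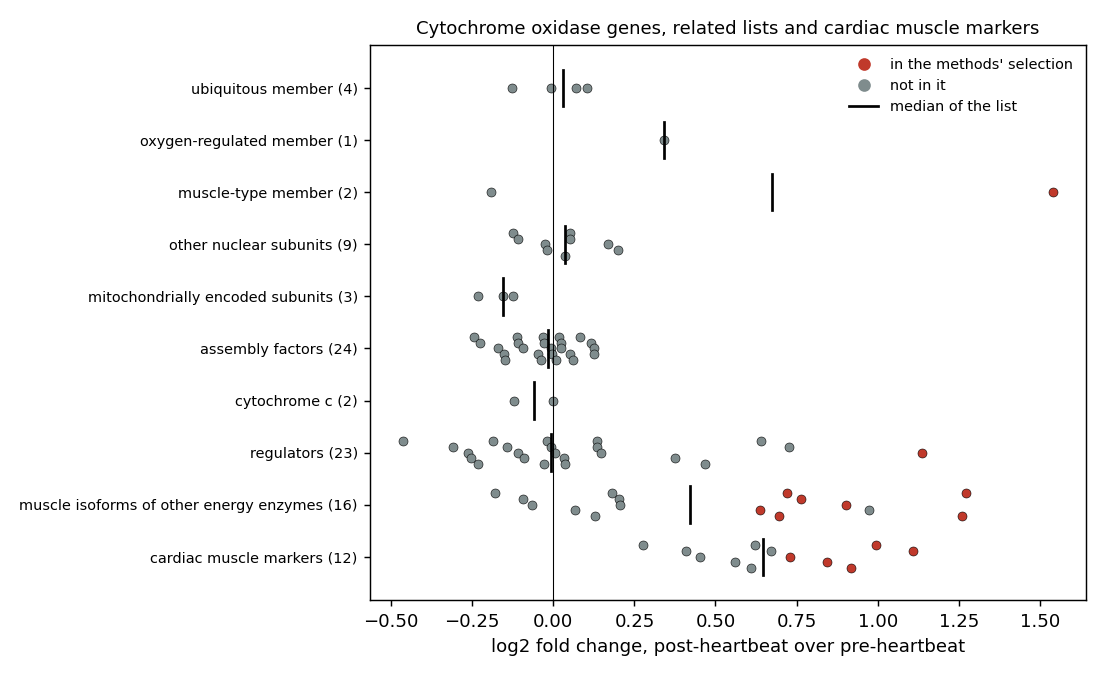
Log2 fold change of post-heartbeat over pre-heartbeat for the tested genes of each list (number in brackets), with red points for genes in the methods' selection and black lines for list medians. The points of the other nuclear subunits, the mitochondrially encoded subunits and the assembly factors lie between -0.24 and 0.20, and Cox6a2, at 1.54, is the one red point among the oxidase genes.

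The genes whose signals over the 6 arrays were most like those of Cox6a2 were Hacd1 (Pearson r = 0.998), Tmem100 (0.993), Smpx (0.992), Ldhb (0.992) and Gbas (0.991). They were taken from all tested probes, and the 6 arrays share the step between the groups, so that r is a description. Their log2 fold changes were 0.73, 0.59, 0.75, 0.70 and 0.79, each smaller than that of Cox6a2. On pre-heartbeat replicate 1, which had the lowest signal of Cox6a2, all 5 also had their lowest signal.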

How the data were processed

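The authors quantified the 6 one-color Agilent rat arrays with Agilent Feature Extraction 10.7.3.1 (per the submitters' processing notes) and deposited the processed signal of each spot, a background-subtracted intensity not normalized between arrays. They also deposited GeneSpring ratios, each array divided by its 75th percentile and each probe by a baseline. Per the study's methods this baseline was the median of all samples, and it cancels between groups. Differences between arrays in these ratios were within 0.05 log2 units of the processed signal for 100% of 30367 probes, and the column medians were 0.934, 1.10, 1, 0.987, 0.998 and 1.

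Control spots and 324 to 545 outlier spots per array were left out of 58717, the 75th percentile (1143 to 1694 intensity units) was subtracted on the log2 scale, and spots of a probe were averaged. A probe was well above background where at least 50% of its spots were, and 0 spots were saturated. A gene is represented by its brightest tested probe. Groups were compared with limma 3.58.1 in R 4.3.3, with Benjamini-Hochberg adjustment over 19299 probes, and single values by exact permutation over 20 splits. The procedure was tested on simulated data. Alternatives were normexp, quantile normalization, other percentiles and filters, the ratios, the mean of a gene's probes, the slide or replicate number as a block, an intensity trend, other p-values in the selection, and leaving out each array. The members and lists were chosen with earlier results of these data known. Named are the 8 members, the Cox5, Cox6b, Cox6c, Cox7b, Cox7c and mitochondrial subunits, list genes past limma or in the selection, and the 5 genes most correlated with the member of largest change. Outside this rule, cytochrome c genes, regulators of Cox4i2, genes at the ends of a range and genes past an unadjusted p or the block are also named. So are markers that were brightest in their list or not well above background. The number of arrays limits the precision.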

Additional observations from a re-analysis of the deposited data

How the results depend on the processing

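With the slide as a block, 1 of the 6 tested genes, Cox6a2, was higher at a limma adjusted p under 0.05, and 0 without it. The replicate number as a block also gave 1, Cox6a2 (limma adjusted p = 0.0158), but the labels do not say whether the numbers pair the samples. Deviations of same-numbered arrays from their group means correlated at 0.65, -0.28 and 0.49. The arrays numbered 1 shared a slide, as did those numbered 3, and those numbered 2 did not, so pairing and slide cannot be told apart here. Over these alternatives the log2 fold change of Cox6a2 ran from 1.0, with normexp, to 1.77. Its limma adjusted p ran from 0.0158, with the replicate block, to 0.427, without post-heartbeat replicate 2. On the scale of the cardiac markers, chosen after the values had been seen, its change was 0.86, where the median of all tested probes was -0.72. As this scale moves the typical probe away from 0, no adjusted p is read from it. Leaving out 1 array at a time, the log2 fold change of Cox6a2 ran from 1.33 to 1.77, 0 genes passed limma in either direction, and 1 was higher and 0 lower in the methods' selection. With Benjamini-Hochberg adjustment of the Tukey HSD p, 0 were selected. Counts of the other oxidase genes stayed at 0 in every alternative run.

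Other values without a call turned sign. With the slide as a block, the fold change of Cox4i2 was -0.052, that of Cox4i1 was 0.039, and the pair of Cox4i2 less Cox4i1 changed by -0.091. With quantile normalization, Cox4i1 was at 0.062 and Cox6a1 at 0.013. With arrays left out in turn, the pair of Cox8b, at the limit of detection, less Cox8a ran from -0.21 to 0.49. Cox4i1 ran from -0.11 to 0.088 and Cox8a from -0.029 to 0.15. The other pairs kept their sign when arrays were left out. Cox4i2 less Cox4i1 ran from 0.11 to 0.80, Cox6a2 less Cox6a1 from 1.53 to 1.81 and Cox7a1 less Cox7a2 from -0.38 to -0.20. The causes were not tested. Signal over background limited Cox8b, which was well above background on 3 of 6 arrays.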
